A study of Mus musculus with 6 samples.

Results

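The genes described here encode the enzymes that lithium inhibits and the proteins that supply cells with *myo*-inositol. These 9 genes were listed by name, with earlier results of these data known. They include the kinase genes *Gsk3a* and *Gsk3b* and the phosphatase genes *Impa1*, *Impa2*, *Inpp1* and *Bpnt1*. The others are the inositol synthase gene *Isyna1* and the inositol transporter genes *Slc5a3* and *Slc5a11*. All 9 were found among the 56748 genes of the count table, and 8 of them were among the 18188 genes with enough counts to be tested. *Slc5a11* was not. Ureters of wildtype NMRI mouse embryos were explanted at E12.5 and cultured on Transwell membranes for 18 h, either in medium with 15 mM LiCl or in medium with water as control. Poly-A selected RNA of 3 samples per group was sequenced. How many ureters were pooled in a sample is not given in the sources used here, so the p-values measure the spread between these samples. The 6 samples cover a single dose and time and no other salt. Whole explants were used, so that epithelium, mesenchyme and other cells contributed to each value, and fewer cells of a type cannot be told apart from less RNA per cell.

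Lithium inhibits GSK3 and the phosphatases described here by competing with magnesium. GSK3A and GSK3B are paralogous serine/threonine kinases that hold β-Catenin (CTNNB1) low by marking it for destruction, which is why LiCl is used as an agonist of canonical WNT signaling. IMPA1 and IMPA2 release free inositol from inositol monophosphates, INPP1 acts a step earlier on inositol bisphosphates, and BPNT1 degrades PAP, the by-product of sulfation. ISYNA1 makes inositol phosphate from glucose phosphate, and SLC5A3 and SLC5A11 import inositol together with sodium. Inhibition by lithium takes place at the protein, whereas the values here are transcript levels.

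The libraries held from 28473436 to 31266945 counts, with overlapping ranges in both groups. Within a group, the spread between libraries exceeded that of counting alone (ratio of chi-square to its degrees of freedom 5.51 to 13.2). Markers of ureteric epithelium and mesenchyme were present in all libraries. The summed level of 9 epithelial markers was 1070 to 1370 CPM in the controls and 781 to 818 CPM with LiCl, and that of 8 mesenchymal markers was 1800 to 1920 and 1750 to 1790 CPM. CPM are counts scaled to a common library size with TMM factors. LiCl replicates 1 and 3 stood apart by 8 skeletal muscle markers, whose sum was 34.3 CPM in LiCl replicate 1 and 69.4 CPM in LiCl replicate 3, against 7.41 CPM in LiCl replicate 2 and 5.61 to 6.89 CPM in the controls. Where a call of a gene named below was lost with LiCl replicate 2 as the single LiCl sample, this is given beside it.

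Transcript levels of the 8 tested genes differed by at most 1.37-fold between the groups. After LiCl, 1 of the 8 tested genes passed the test as higher, *Slc5a3*, at 1.37-fold, and 1 as lower, *Inpp1*, at 0.843-fold. Genes passed at a Benjamini-Hochberg adjusted p under 0.05 in the quasi-likelihood test of edgeR. No gene reached the study's additional threshold of a log2 fold change above 1 or below -1. Across all tested genes, 21.1% passed as higher and 22.4% as lower, and 2.74% and 4.59% also passed the fold change threshold. The share of the 8 genes that passed in either direction was 25%, below the 43.5% of all genes, but with 8 genes this is a description. Their median log2 fold change was 0.08, against -0.01 for all tested genes. In CPM, the groups did not overlap in 3 of the 8 genes (*Gsk3a*, *Inpp1* and *Slc5a3*), whereas 54.2% of all tested genes had groups that did not overlap. The plot of CPM by library shows the values of every gene.

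**Figure D1:**
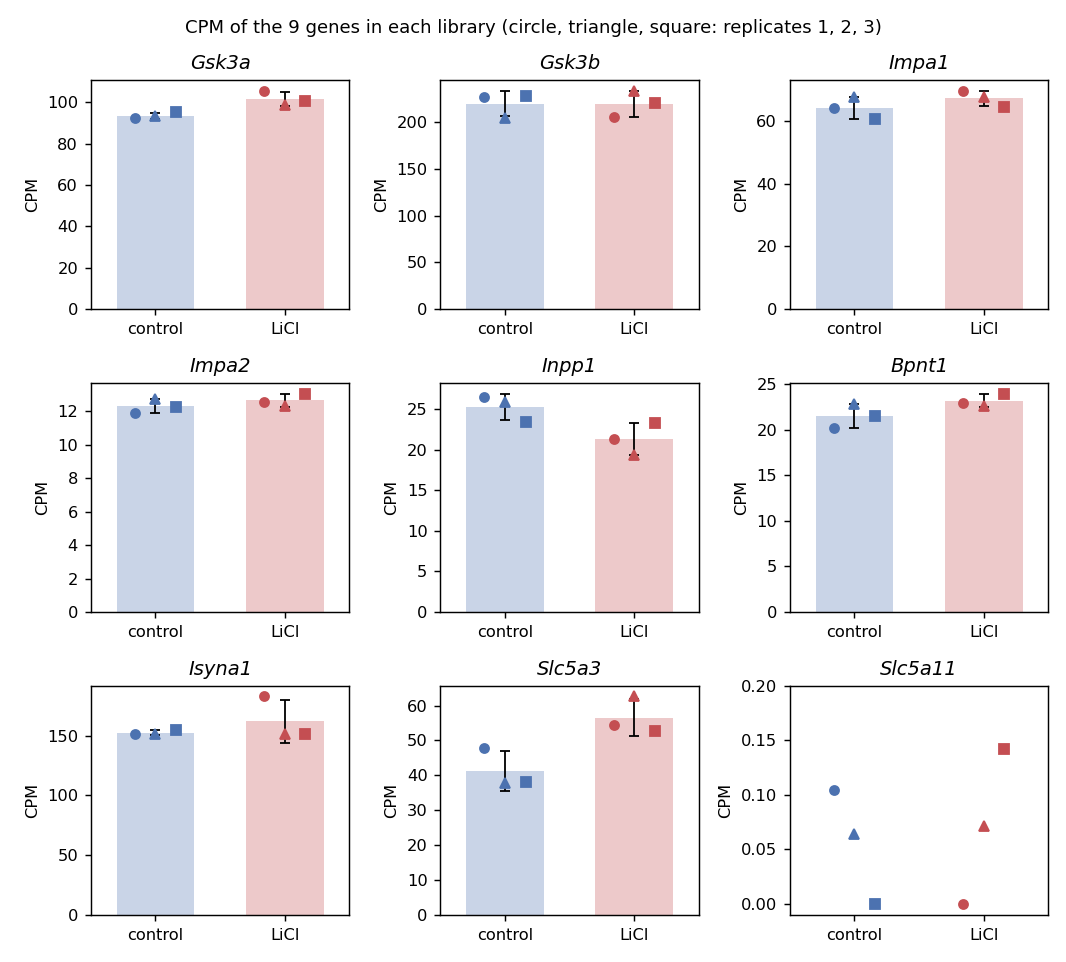
CPM (y axis, from 0) of the 9 genes in control (blue) and LiCl (red) libraries; circle, triangle and square are replicates 1, 2 and 3, bars are group means and error bars SD (n = 3), which are left out for *Slc5a11* because its libraries hold 0 to 4 counts. The points of the groups are apart in *Gsk3a*, *Inpp1* and *Slc5a3* and intermingle in the other panels.

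*Gsk3b* (ENSMUSG00000022812), the kinase gene that the use of LiCl is directed at, had 226, 204 and 228 CPM in control replicates 1 to 3 and 205, 233 and 221 CPM in LiCl replicates 1 to 3. The group means were 219 ± 13.4 and 220 ± 13.9 CPM (SD, n = 3). The ranges overlapped almost fully. The log2 fold change was 0.00 with a 95% interval from -0.14 to 0.14, so that a change beyond 0.908-fold or 1.10-fold lay outside the interval (adjusted p = 0.99 in the edgeR test).

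*Gsk3a* (ENSMUSG00000057177) had 92.5, 93.2 and 95.3 CPM in the controls and 106, 98.9 and 101 CPM with LiCl. Every LiCl library was above every control library, by a small step. The log2 fold change was 0.12 (standard error 0.05, 95% interval 0.02 to 0.22), with an adjusted p of 0.062, just short of the threshold. It passed with RLE size factors and with limma on FPKM in 3 settings, with adjusted p from 0.029 to 0.047, and not in the other alternatives, where the adjusted p reached 0.46. An antisense transcript, 9130221H12Rik, shares 820 of the 2900 exonic bases of *Gsk3a*. It had 108 to 136 counts in the controls and 153 to 162 with LiCl, against 2659 to 3286 counts of *Gsk3a*. The libraries were stranded, but the strand setting of the counting is not given in the sources used here, so the reads of both transcripts in the shared bases cannot be told apart.

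Per length, the order of the paralogs was the opposite of that in CPM. In FPKM, which divide the counts by gene length, *Gsk3a* had 31.9 ± 0.61 (SD, n = 3) and *Gsk3b* 22.1 ± 1.26 in the controls, since the exons of *Gsk3b* sum to 9831 bases and those of *Gsk3a* to 2900. The ratio of *Gsk3b* to *Gsk3a* in FPKM was 0.721, 0.645 and 0.706 in the controls and 0.572, 0.694 and 0.646 with LiCl. These ratios overlapped between the groups. The mean log2 ratio differed by -0.12 (two-sided exact permutation test, p = 0.3, adjusted p = 0.45 over 3 ratios, where 0.1 is the smallest p that 3 against 3 samples allow).

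The lithium-sensitive phosphatases were measured as 4 genes. *Inpp1* (ENSMUSG00000026102) had 26.5, 25.9 and 23.4 CPM in the controls and 21.3, 19.3 and 23.3 CPM with LiCl. There was no overlap, but control replicate 3 and LiCl replicate 3 were almost level. It fell by 0.25 on the log2 scale (standard error 0.08, 95% interval -0.43 to -0.06, adjusted p = 0.039 in the edgeR test). The call was lost in 10 of 16 alternatives, among them DESeq2 (adjusted p = 0.075), the replicate number as a block (adjusted p = 0.079), and each of the fits that left out control replicate 1, control replicate 2, LiCl replicate 1 or LiCl replicate 2 (adjusted p from 0.079 to 0.13). The log2 fold change stayed negative in all of them, between -0.38 and -0.18. Epithelial markers were lower with LiCl in the same libraries, and their part in the decrease of *Inpp1* was not tested.

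*Impa1* (ENSMUSG00000027531), the major inositol monophosphatase, had 64.2, 67.8 and 60.6 CPM in the controls and 69.5, 67.7 and 64.6 CPM with LiCl. *Impa2* (ENSMUSG00000024525), its paralog, had 11.9, 12.7 and 12.3 CPM in the controls and 12.6, 12.3 and 13.1 CPM with LiCl. In both genes the groups overlapped. The log2 fold changes were 0.07 (95% interval -0.06 to 0.20, adjusted p = 0.37) and 0.04 (95% interval -0.14 to 0.22, adjusted p = 0.72). *Impa1* was the more abundant paralog in every library, with an *Impa2* to *Impa1* ratio in FPKM of 0.188 to 0.205 in the controls and 0.183 to 0.205 with LiCl. The mean log2 ratio differed by -0.03 between the groups (two-sided exact permutation test, p = 0.5, adjusted p = 0.50 over 3 ratios).

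*Bpnt1* (ENSMUSG00000026617) had 20.2, 22.9 and 21.5 CPM in the controls and 22.9, 22.7 and 24.0 CPM with LiCl, with 1 control library inside the LiCl range. The log2 fold change was 0.11 (95% interval -0.05 to 0.26, adjusted p = 0.24). A p that misses the threshold does not show equal levels. The upper bounds of the intervals were 1.15-fold for *Impa1*, 1.16-fold for *Impa2* and 1.20-fold for *Bpnt1*.

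*Isyna1* (ENSMUSG00000019139) had the highest level per length of all 9 genes. It had 152, 151 and 155 CPM in the controls and 183, 152 and 151 CPM with LiCl. LiCl replicate 1 was above the other libraries, which lay between 151 and 155 CPM. The log2 fold change of 0.09 (95% interval -0.08 to 0.25, adjusted p = 0.36) went to -0.01 without that library. Skeletal muscle markers were raised in LiCl replicate 1 and higher still in LiCl replicate 3, which had a control-like *Isyna1* value. Their part in the *Isyna1* values was not tested.

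*Slc5a3* (ENSMUSG00000089774), also known as SMIT1, was the gene with the largest change. It had 47.8, 37.8 and 38.2 CPM in the controls and 54.3, 62.6 and 52.6 CPM with LiCl. Control replicate 1 was the highest control and lay below all LiCl libraries. The means were 41.3 ± 5.68 and 56.5 ± 5.34 CPM (SD, n = 3). *Slc5a3* rose by a log2 fold change of 0.45 (standard error 0.10, 95% interval 0.23 to 0.68, adjusted p = 0.0057 in the edgeR test), which is 1.17-fold to 1.60-fold. Of all tested genes, 88.7% had a lower log2 fold change. The gene passed in all 16 alternatives, with log2 fold changes from 0.38 to 0.61 and adjusted p from 7.6e-07 to 0.037. The largest value, 0.61, was that with LiCl replicate 2, the library highest in *Slc5a3*, as the single LiCl sample. The smallest, 0.38, was that without this library. The part of the raised muscle markers in the other LiCl libraries was not tested.

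*Slc5a3* lies within the transcription unit of *Mrps6*, a gene of the mitochondrial ribosome on the same strand, and shares 159 of its 10913 exonic bases with it. *Mrps6* had 14.3, 15.6 and 13.1 CPM in the controls and 17.9, 16.9 and 15.3 CPM with LiCl. Its log2 fold change was 0.22 (95% interval 0.01 to 0.43, adjusted p = 0.087) and did not pass the test. How reads in the shared exon were assigned is not given in the sources used here.

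The other sodium-coupled transporter gene, *Slc5a11* (ENSMUSG00000030769), also known as SMIT2, was barely detected. The controls held 3, 2 and 0 counts and the LiCl libraries 0, 2 and 4 counts, 5 and 6 counts in all, so no fold change is given. At this depth *Slc5a3* held at least 1169 counts in each library.

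**Figure D2:**
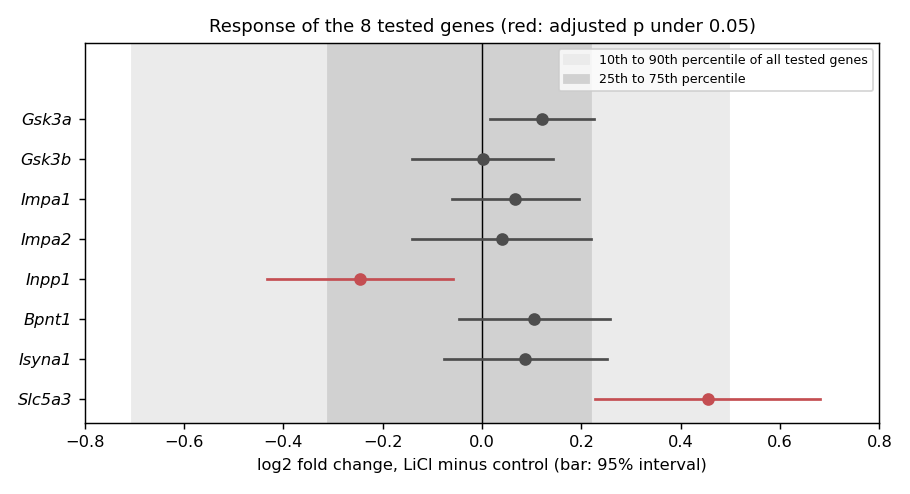
Log2 fold change (x axis, LiCl minus control) of the 8 tested genes with 95% intervals; red marks an adjusted p under 0.05, and the grey bands hold the 25th to 75th and the 10th to 90th percentile of all 18188 tested genes. *Slc5a3* at 0.45 lies just inside the upper edge of the wider band at 0.50, *Inpp1* at -0.25 lies within the inner band, and the 6 other genes lie between 0.00 and 0.12.

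To place the pair of genes that passed, the bases before their transcription starts are shown. They were taken from RefSeq on GRCm38.p6, whereas the submitters and the study name GRCm39 for the counts. Each run covers 250 bases up to the start. Capitals mark matches on either strand to GGGCGG, the GC box bound by SP1-type factors, and to CTTTGA or CTTTGT, core letters of TCF/LEF sites.

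Slc5a3, chr16:92058072-92058321, plus strand: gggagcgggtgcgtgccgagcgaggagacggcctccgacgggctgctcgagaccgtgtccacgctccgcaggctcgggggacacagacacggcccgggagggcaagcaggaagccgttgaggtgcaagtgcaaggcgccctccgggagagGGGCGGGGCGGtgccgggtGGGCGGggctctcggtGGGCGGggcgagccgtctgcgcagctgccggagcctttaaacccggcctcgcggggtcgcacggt

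Inpp1, chr1:52817689-52817938, minus strand: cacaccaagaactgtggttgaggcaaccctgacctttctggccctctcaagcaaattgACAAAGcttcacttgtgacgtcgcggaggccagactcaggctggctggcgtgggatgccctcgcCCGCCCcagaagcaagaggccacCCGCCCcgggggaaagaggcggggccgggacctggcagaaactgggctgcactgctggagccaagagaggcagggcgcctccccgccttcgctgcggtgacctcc

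The *Slc5a3* window was 74.8% G and C, with 32 CpG and 4 GC boxes, a pair of which overlap. The *Inpp1* window was 65.6% G and C, with 14 CpG, 2 GC boxes and 1 match to CTTTGT. Over the 32851 windows of all genes, the median was 52.4% G and C, 32.7% held a GC box, 16.5% CTTTGT and 13.8% CTTTGA. Windows were found for 7 of the 9 genes. CTTTGA was present in those of *Gsk3a* and *Gsk3b*, CTTTGT also in that of *Slc5a11*, and a GC box also in that of *Gsk3a*. The tonicity-responsive element, the site of the osmotic stress factor NFAT5, is held by 4.31% of all windows and by none of the 7, which says no more than that these letters are not in these windows.

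Per length, the order of the control levels was *Isyna1* (61.9 ± 0.90 FPKM), *Gsk3a* (31.9 ± 0.61), *Gsk3b* (22.1 ± 1.26), *Impa1* (11.7 ± 0.68), *Bpnt1* (9.23 ± 0.62), *Inpp1* (3.87 ± 0.24), *Slc5a3* (3.74 ± 0.49) and *Impa2* (2.27 ± 0.09 FPKM, all SD, n = 3). The ranges of neighbours in this order did not overlap, with the exception of *Inpp1* at 3.59 to 4.04 and *Slc5a3* at 3.45 to 4.30 FPKM. With LiCl, these genes separated, at 2.99 to 3.62 FPKM for *Inpp1* and 4.84 to 5.73 FPKM for *Slc5a3*. The other places in the order were the same. Among the tested genes, *Isyna1* was at the 96.8th percentile of the control FPKM and *Impa2* at the 36.3rd percentile. *Slc5a11* had a mean of 0.02 FPKM in the controls.

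**Figure D3:**
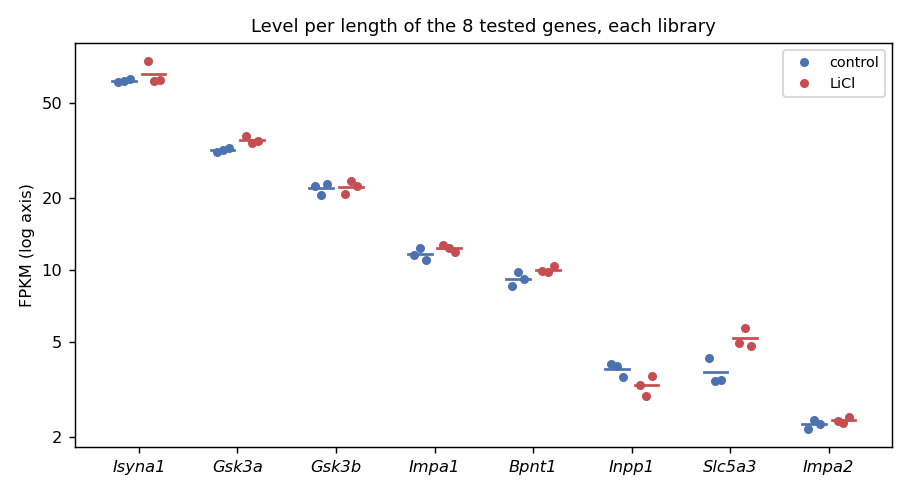
FPKM (log axis) of the 8 tested genes in each control (blue) and LiCl (red) library, ordered by the control mean, with short lines at the group means (n = 3). *Slc5a3* and *Inpp1* share a range in the controls and are apart with LiCl, where *Slc5a3* is at 4.84 FPKM or more.

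Uptake was also compared with synthesis. The ratio of *Slc5a3* to *Isyna1* in FPKM was 0.0705, 0.0559 and 0.0551 in the controls and 0.0664, 0.0921 and 0.0777 with LiCl. LiCl replicate 1, in which *Isyna1* was high, fell within the control range. The mean log2 ratio was higher by 0.38 with LiCl, which did not pass (two-sided exact permutation test, p = 0.2, adjusted p = 0.45 over 3 ratios).

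Genes that work next to these proteins were grouped in 10 lists of 83 genes, of which 79 were tested. Of these, 19 were higher and 24 lower at an adjusted p under 0.05, a share of 54.4% against 43.5% of all genes. With LiCl replicate 2 as the single LiCl sample, fewer passed in either direction, as was also so among all tested genes. The median of the 79 log2 fold changes was -0.01. In the fit with LiCl replicate 2 as the single LiCl sample, where 80 of the genes were tested, the median was also -0.01. The study's thresholds were passed by 3, all lower: *Frat1*, *Frat2* and *Cds1*.

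Among 15 partners of GSK3 and members of the β-Catenin destruction complex, 5 were higher and 4 lower, with a median of -0.06. That is a share of 60% against 43.5% of all genes. *Frat1* (ENSMUSG00000067199), which encodes a GSK3-binding protein that displaces Axin, had 8.04, 7.70 and 7.80 CPM in the controls and 1.70, 2.22 and 1.38 CPM with LiCl. *Frat2* (ENSMUSG00000047604), its paralog, had 16.9, 19.0 and 15.2 CPM in the controls and 5.24, 4.98 and 6.07 CPM with LiCl. Both fell far below the control range, with log2 fold changes of -2.15 (standard error 0.17, adjusted p = 1.7e-05) and -1.65 (standard error 0.12, adjusted p = 1.0e-05). The scaffold gene *Axin2*, a feedback target of the pathway, went up from 71.8 ± 2.68 to 136 ± 2.03 CPM (SD, n = 3), or by 0.92 on the log2 scale (adjusted p = 1.4e-06). *Dvl1*, a transducer of WNT receptors, rose from 73.2 to 125 CPM, a log2 fold change of 0.77 (adjusted p = 6.8e-05). *Ctnnb1*, the gene of β-Catenin, is named here after its values were seen. It fell from 1155 to 865 CPM, a log2 fold change of -0.42 (adjusted p = 6.4e-05).

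Other lithium-sensitive enzymes were represented by 3 tested genes, of which 2 were lower, a share of 66.7% against 43.5% of all genes. *Bpnt2* (listed as *Impad1*), the Golgi relative of *Bpnt1*, had 201 to 214 CPM in the controls and 203 to 214 CPM with LiCl, a log2 fold change of 0.01 (adjusted p = 0.89). The phosphoglucomutase genes *Pgm1* (ENSMUSG00000025791) and *Pgm2* (ENSMUSG00000029171), whose symbols differ between annotation releases, fell by 0.35 and 0.22 on the log2 scale (adjusted p = 0.0020 and 0.013). The fructose bisphosphatase genes *Fbp1* and *Fbp2* were too low to be tested, at up to 0.35 CPM. In the turnover of PAP and its precursor PAPS, 1 of 5 genes was higher and 1 lower, a share of 40% against 43.5% of all genes. *Papss2*, a PAPS synthase, fell by 0.62 and *Slc35b3*, a Golgi PAPS transporter, rose by 0.46 on the log2 scale. *Slc35b3* did not pass when LiCl replicate 2 was the single LiCl sample (0.35, adjusted p = 0.13).

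Inositol is built into phosphatidylinositol by CDIPT, with an activated lipid made by CDS1 and CDS2. Of 11 genes of this step and of the kinases that follow, 3 were higher and 3 lower. This share was 54.5%, against 43.5% of all genes. *Cds1* had 25.5, 24.7 and 21.0 CPM in the controls and 11.4, 11.7 and 11.2 CPM with LiCl. It fell by 1.05 ± 0.09 (standard error) on the log2 scale, with an adjusted p of 2.6e-05. Its paralog *Cds2*, also named after its values were seen, had 134 to 155 CPM in the controls and 145 to 158 CPM with LiCl (log2 fold change 0.05, adjusted p = 0.53). *Tamm41*, a mitochondrial CDP-diacylglycerol synthase gene, rose by 0.30 on the log2 scale, while the phosphatidylinositol 4-kinase genes *Pi4k2b* and *Pi4ka* fell by 0.31 and 0.22. The call of *Pi4ka* was lost without control replicate 1 or 3 or LiCl replicate 1 or 3, at log2 fold changes of -0.16, -0.20, -0.18 and -0.23. With LiCl replicate 2 as the single LiCl sample, *Tamm41* (0.20, adjusted p = 0.2), *Pi4k2b* (-0.30, adjusted p = 0.054) and *Pi4ka* (-0.18, adjusted p = 0.27) did not pass.

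Phospholipase C genes, whose products release IP3 from the membrane lipid, went mostly down. Of 12 tested genes, 7 were lower and 2 higher, a share of 75% against 43.5% of all genes, and the median was -0.40. *Plcd1* fell from 38.0 ± 0.75 to 19.99 ± 2.15 CPM (SD, n = 3), *Plce1* from 29.0 to 15.8 CPM and *Plcb2* from 5.36 to 3.10 CPM. Their log2 fold changes were -0.93, -0.88 and -0.79. *Plch1* rose from 10.8 to 18.6 CPM, by 0.79 on the log2 scale. With LiCl replicate 2 as the single LiCl sample, *Plcb2* did not pass (adjusted p = 0.086). The epithelial markers fell with LiCl in the same libraries (8 of 9 lower, 1 higher), and their part in the decreases of *Cds1* and the phospholipase C genes was not tested. Of the 3 IP3 receptor genes, *Itpr3* fell by 0.29 on the log2 scale and the others did not pass. The share that passed was 33.3%, against 43.5% of all genes. The call of *Itpr3* was lost with LiCl replicate 2 as the single LiCl sample (-0.29, adjusted p = 0.11).

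Downstream of IP3, 10 inositol phosphate kinase genes had a median of 0.00, with 3 higher and 2 lower. The share that passed was 50%, against 43.5% of all genes. *Itpk1* fell by 0.55 and *Ppip5k1* by 0.45, while *Ppip5k2* rose by 0.30 and *Ipmk* by 0.27 on the log2 scale. *Itpk1* (-0.41, adjusted p = 0.066) and *Ipmk* (0.16, adjusted p = 0.21) did not pass when LiCl replicate 2 was the single LiCl sample. The 15 other phosphatase genes for inositol phosphates and phosphoinositides had a median of 0.07, with 3 higher, 2 lower and 10 that did not pass. Here the share that passed was 33.3%, below the 43.5% of all genes. *Synj2* rose by 0.56, the largest change of this list. *Inpp5k* fell by 0.34 and *Inpp5e* rose by 0.20. The call of *Inpp5k* was lost in 1 of 16 alternatives, either a limma fit or that with LiCl replicate 2 as the single LiCl sample. *Inpp5d*, known from blood cells, fell by 0.43 (adjusted p = 0.043). This call was lost without control replicate 1 or 3 or LiCl replicate 1 or 2, at log2 fold changes of -0.46, -0.29, -0.33 and -0.42. When LiCl replicate 2 was the single LiCl sample, neither *Inpp5d* (-0.44, adjusted p = 0.15) nor *Inpp5e* (0.16, adjusted p = 0.21) passed. The sum of 6 macrophage markers, of which 3 were lower and 1 higher, was 60.9 to 97.3 CPM in the controls and 60.4 to 77.0 CPM with LiCl, and its part in the value of *Inpp5d* was not tested.

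A further inositol carrier, the proton-coupled *Slc2a13*, went the opposite way to *Slc5a3*, from 18.1, 15.3 and 16.1 CPM in the controls to 11.6, 11.9 and 12.2 CPM with LiCl. The log2 fold change was -0.48 (standard error 0.09, adjusted p = 0.0021 in the edgeR test). It lay between -0.52 and -0.29 in the 16 alternatives, and the call was lost in 1 of them. This was either a limma fit or that with LiCl replicate 2 as the single LiCl sample. The call held with DESeq2, with the replicate block and in each fit that left out 1 sample. *Miox*, the enzyme of inositol breakdown, had 0 or 1 count per library.

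*Slc5a3* is also known as an osmoprotective target of NFAT5. Of 4 genes of that group, 2 were higher and 1 lower in the edgeR test, a share of 75% against 43.5% of all genes. The taurine transporter gene *Slc6a6* rose from 204 to 303 CPM (log2 fold change 0.57, adjusted p = 4.3e-05). The aldose reductase gene *Akr1b3* rose from 60.2 to 75.4 CPM (0.33, adjusted p = 0.022). *Nfat5* itself had 456, 318 and 356 CPM in the controls and 252, 290 and 257 CPM with LiCl (-0.50, adjusted p = 0.0078), and the betaine transporter gene *Slc6a12* was low, at 0.35 to 0.86 CPM (adjusted p = 0.23). With LiCl replicate 2 as the single LiCl sample, *Slc6a6* passed and *Nfat5* and *Akr1b3* did not, at log2 fold changes of -0.37 and 0.24. *Akr1b3* was also at 0.19 without LiCl replicate 1, its highest library, and did not pass without control replicate 3 (0.30, adjusted p = 0.073). *Nfat5* was at -0.34 without control replicate 1, its highest library, and passed there.

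**Figure D4:**
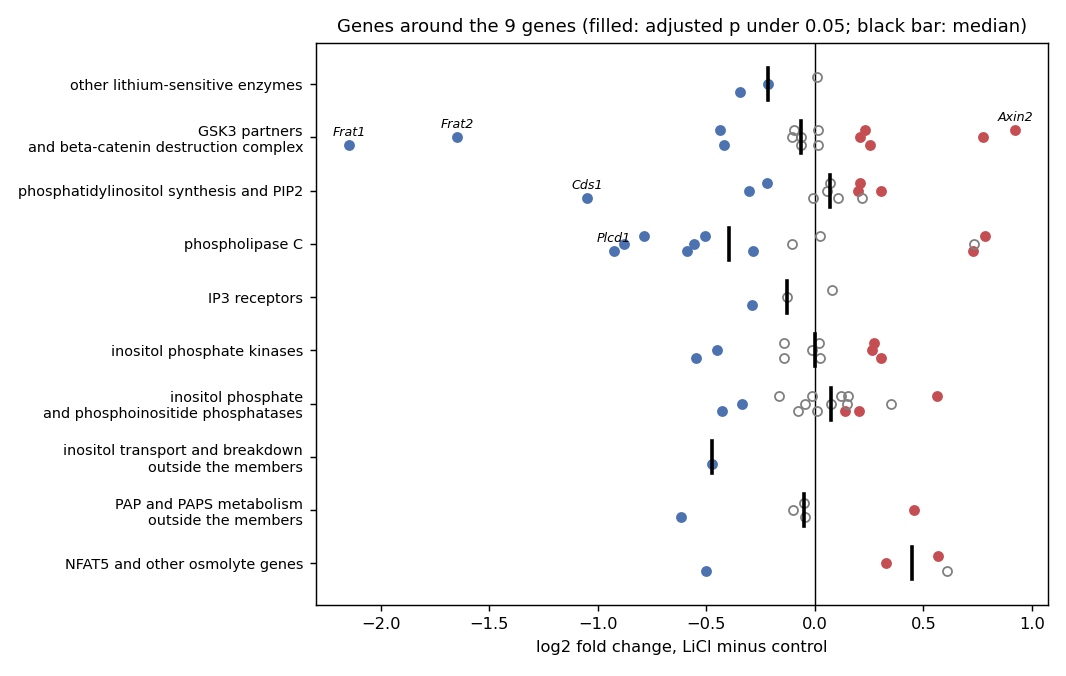
Log2 fold change (x axis, LiCl minus control) of the 79 tested genes of 10 lists (rows); filled points have an adjusted p under 0.05 (red higher, blue lower), open points do not, black bars are list medians, and names are given beyond 0.9 in either direction. *Frat1*, *Frat2* and *Cds1* lie below -1, and most phospholipase C genes lie below 0.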

How the data were processed

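RNA was taken from cultured ureter explants and sequenced by a service provider from stranded, poly-A selected libraries. The authors deposited raw counts per gene for the 6 samples and an FPKM table for each sample. The submitters' processing notes list fastp 0.23, STAR 2.7, featureCounts 2.0 and DESeq2 1.40 with the assembly GRCm39, whereas the methods of the study name HISAT2 as the aligner. The annotation release and strand setting are not given in the sources used here. For all 9 genes, the lengths behind the deposited FPKM equaled the exon sums of GENCODE vM21 within 1 base. The deposited FPKM equal counts divided by DESeq2-type size factors and gene length.

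Counts were tested with edgeR 4.0.16 (R 4.3.3) by the quasi-likelihood test on genes kept by its filter on low counts, with TMM scaling and Benjamini-Hochberg adjustment over 18188 genes. Alternatives used RLE factors, library size alone, other filters, DESeq2 1.42.0, limma 3.58.1 on log2(FPKM + 1) or log2(FPKM + 0.1), a replicate block, and fits with samples left out. The procedure was tested on simulated data. Ratios were compared by exact permutation tests. The 9 genes and the lists were chosen with earlier results of these data known. Named are all 9 genes, in each list the genes past both thresholds and otherwise up to 4 with the largest change among those that passed, and the 3 genes most correlated with the members of highest and lowest change, a result that is not reported here. Each of these libraries has at least 28473436 counts, so low genes such as *Slc5a11* are the ones limited by depth.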

Additional observations from a re-analysis of the deposited data

How the results depend on the processing

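The increase of *Slc5a3* kept its direction and passed in all 16 alternatives, and no member passed the fold change threshold in any of them. *Gsk3a* passed with RLE size factors (0.13), with limma on log2(FPKM + 1) (0.13), with a pseudocount of 0.1 (0.14) and with limma without a filter (0.13), so that 2 members passed as higher in these. *Inpp1* did not pass without a filter on low counts (-0.22), with DESeq2 (-0.23), with the replicate block (-0.25), with limma at a pseudocount of 1 (-0.18), at 0.1 (-0.22) or without a filter (-0.18), so that 0 members passed as lower in these. With samples left out it ranged from -0.31 to -0.18, and 0 to 1 members passed as lower. *Gsk3b* turned sign with library size alone (-0.035) and was at 0.00 with at least 10 counts in every sample; with samples left out it ranged from -0.044 to 0.051. *Isyna1* ranged from -0.0065 to 0.14, and the *Impa2* to *Impa1* log2 ratio difference from -0.081 to 0.011. The cause of these shifts was not tested.

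With LiCl replicate 2 as the single LiCl sample, assumed to vary like the controls, 2014 genes passed as higher and 2117 as lower, and 8 and 14 of the listed genes. Genes past the fold change threshold numbered 177 higher and 141 lower with limma on log2(FPKM + 1), 171 and 139 without a filter, and 430 lower with a pseudocount of 0.1, against 498 and 835. Deviations of samples with the same replicate number correlated at 0.03, -0.09 and 0.10. With 3 samples per group, this cannot settle whether the numbers pair the samples, and the sources used here do not state it. The replicate block ended the calls of *Inpp1* (-0.25) and *Pi4ka* (-0.22) and of no other gene named by the rule.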
